A study of Homo sapiens with 30 samples.

Results

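The aldo-keto reductases considered here are AKR1A1, AKR1B1, AKR1B10, AKR1C1, AKR1C2, AKR1C3 and AKR1C4, and every probe set whose platform annotation carries exactly 1 of these 7 symbols was taken. A probe set is the group of short probes by which the array reads a transcript. The rule found 8 probe sets for 5 of the 7 genes, among 22215 probe sets tested. They were 206561_s_at for AKR1B10, 204151_x_at, 216594_x_at and 217626_at for AKR1C1, 209699_x_at and 211653_x_at for AKR1C2, 209160_at for AKR1C3 and 210558_at for AKR1C4. AKR1A1 and AKR1B1 were not analysed here.

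The cells were a co-culture of Caco-2, a human colorectal adenocarcinoma line that takes on features of absorptive enterocytes after confluence, and HT29-MTX, a methotrexate-treated human colon adenocarcinoma line that secretes mucus. Both are cancer lines, mixed at 75% Caco-2 and 25% HT29-MTX from pooled flasks and grown for 14 days on Transwell inserts. Multi-walled carbon nanotubes (MWCNT) or titanium dioxide nanobelts (TiO2-NB) were then placed in the upper compartment at 10 or 100 µg/ml for 1 or 24 h, and the controls of each time received fresh medium without particles. There were 30 arrays, 3 labelled as biological replicates in each of 10 groups: control, MWCNT at 10 and at 100 µg/ml, and TiO2-NB at 10 and at 100 µg/ml, each at 1 h and at 24 h. Because the flasks were pooled before seeding, the replicates of a group may share their cells up to that step, and p-values then measure the spread between these wells.

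Aldo-keto reductases use NADPH to reduce aldehydes and ketones to alcohols. In the gut and liver they act on lipid aldehydes, retinal, steroids, prostaglandins and many drugs. Several of them are known targets of NRF2, the transcription factor of the electrophile and oxidant response. AKR1B10 reduces retinal and aliphatic aldehydes and is found mainly in the intestinal epithelium. AKR1C1 inactivates progesterone, AKR1C2 inactivates dihydrotestosterone, AKR1C3 makes testosterone and prostaglandin F compounds, and AKR1C4 is a liver enzyme of steroid and bile acid metabolism. The AKR1C genes lie next to one another on chromosome 10, in the order AKR1C1, AKR1C2, AKR1C3, AKR1C8 and AKR1C4. AKR1C1 and AKR1C2 are near copies of each other.

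The values are log2 levels made by the authors with RMA. Probes differ in their binding, so ranks among probe sets and positions against the array median describe signal, not amounts of transcript. Array medians lay between 6.45 and 6.49, the lowest correlation between arrays of a group was 0.997, and the highest level of any probe set on any array was 14.4. The labelled cells were checked against marker lists. All 12 enterocyte markers and all 8 epithelial markers measured had a mean level above the array median, as did 8 of 12 goblet cell markers. MUC2, MUC5B, ATOH1 and CLCA1 were the goblet cell markers below it. Of the markers of cells that the cultures should lack, 2 of 8 for fibroblasts, 1 of 7 for endothelium and 2 of 10 for leukocytes were above it.

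On the deposited scale, the 4 probe sets of AKR1C1 and AKR1C2 whose names end in x_at lay close to the top of the array. Their mean levels over the 30 arrays were 13.28 for 204151_x_at, 13.03 for 216594_x_at, 12.55 for 209699_x_at and 12.61 for 211653_x_at, so that between 98.3% and 99.2% of all probe sets had a lower mean. AKR1C3 had a mean of 11.53 (above 96.1% of probe sets) and AKR1B10 a mean of 9.01 (above 80.1%). AKR1C4 had a mean of 4.71, above 24.0% of probe sets, and ranged from 4.33 to 4.96 over the 30 arrays. The third AKR1C1 probe set, 217626_at, had a mean of 5.85 (above 41.4%). The suffix x_at marks probe sets in which some probes also match other transcripts, so the signals of AKR1C1 and AKR1C2 cannot be told apart with these 4 probe sets.

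**Figure D1:**
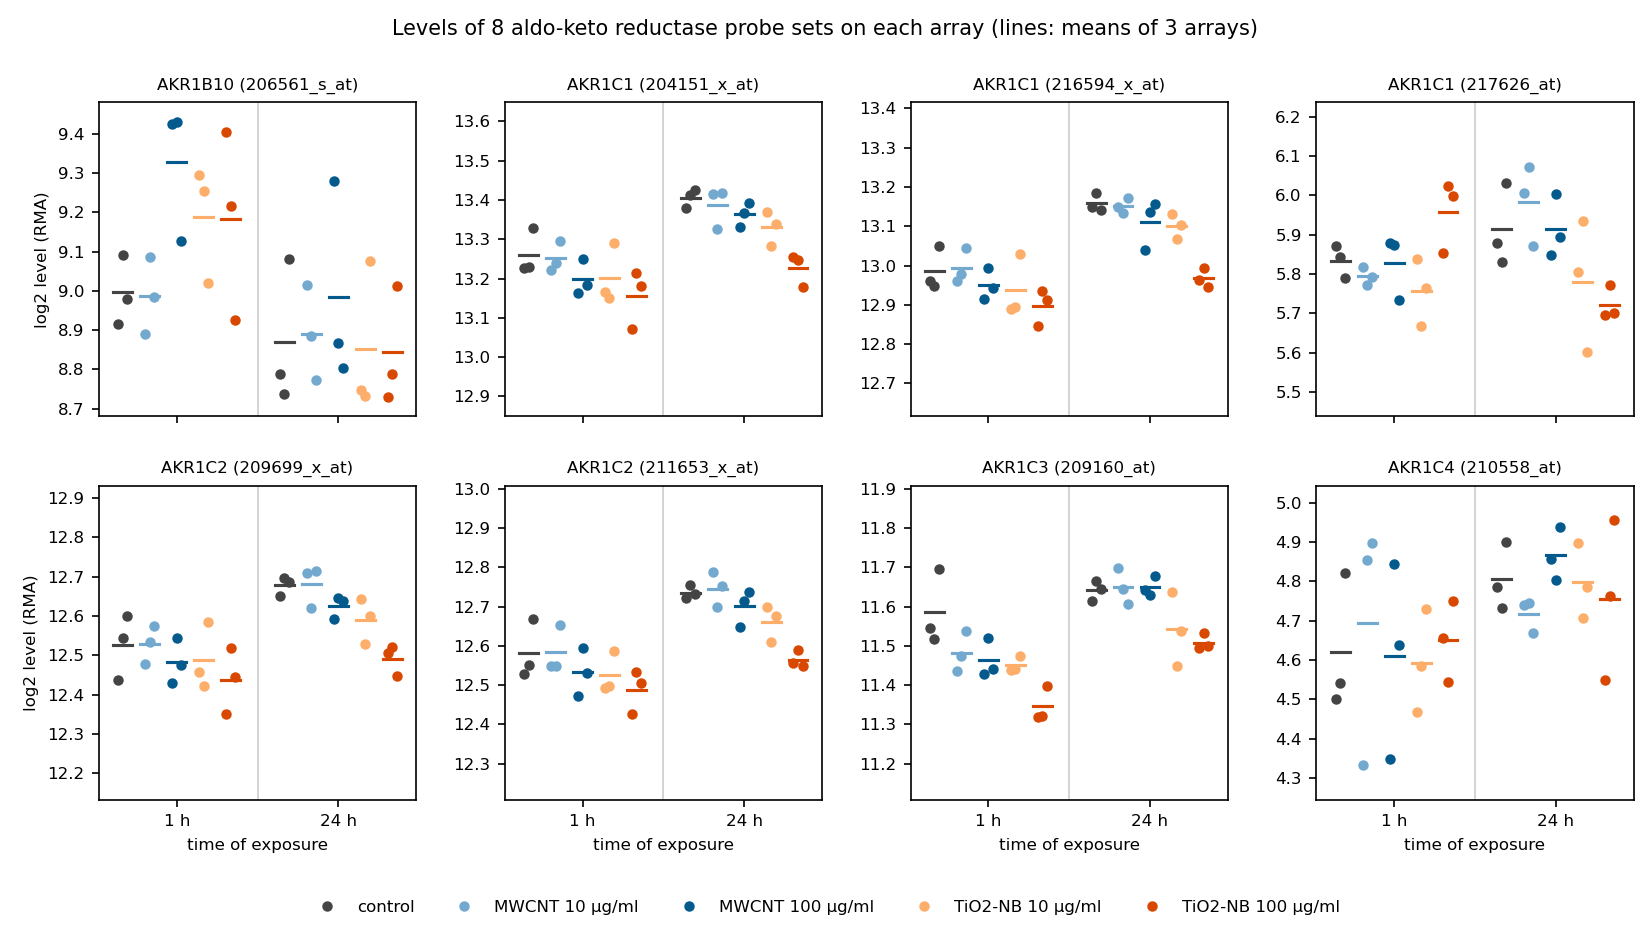
Log2 level (RMA) of each of the 8 probe sets on each of the 30 arrays, by time and exposure; points are arrays, short lines are means of 3 arrays, and every panel spans the same number of log2 units. In the 4 x_at panels the 3 arrays exposed to 100 µg/ml of TiO2-NB for 24 h lie below all 3 controls of that time, whereas AKR1B10 and AKR1C4 show wide spread within groups.

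A moderated F-test (limma) asked which members varied at all over the 10 groups. It passed for 7 of the 8 member probe sets, and for 38.5% of all probe sets. The adjusted p-values were 2.88e-04 and 3.18e-05 for the AKR1C1 probe sets 204151_x_at and 216594_x_at, 0.00185 and 1.29e-04 for AKR1C2, 6.69e-05 for AKR1C3, 0.0345 for AKR1B10 and 0.0412 for 217626_at. AKR1C4 did not pass (adjusted p = 0.540). The group means of a member spanned no more than 0.48 log2 units, which was the span of AKR1B10, and between 0.24 and 0.30 in the other 7 probe sets.

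For AKR1C1 probe set 204151_x_at, the groups in order of mean level were control at 24 h (13.41 ± 0.024, SD, n = 3), MWCNT at 10 µg/ml (13.39 ± 0.052), MWCNT at 100 µg/ml (13.36 ± 0.031) and TiO2-NB at 10 µg/ml (13.33 ± 0.043), all at 24 h. Control at 1 h followed (13.26 ± 0.058), then MWCNT at 10 µg/ml for 1 h (13.25 ± 0.039). TiO2-NB at 100 µg/ml for 24 h came next (13.23 ± 0.042), and the other 1 h groups lay lower, at 13.20, 13.20 and 13.16. Thus 1 of the 24 h groups stood among the 1 h groups. Of the 9 steps between neighbouring groups, 8 were no larger than the bigger of the 2 SDs; the exception was the step of 0.070 from TiO2-NB at 10 µg/ml for 24 h to control at 1 h. TiO2-NB at 100 µg/ml for 24 h also took the seventh place in the other 3 x_at probe sets, below control at 1 h.

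The largest set of member calls came after 24 h with TiO2-NB at 100 µg/ml. All 4 x_at probe sets of AKR1C1 and AKR1C2 fell below control, to between 87.6% and 88.8% of its level. The adjusted p was under 0.05 for 4 of 8 members and for 3.53% of all probe sets; 0 members rose. The median difference was -0.17 over the 8 members and 0.011 over all probe sets. The 4 x_at probe sets cannot tell AKR1C1 from AKR1C2, so neither this count nor this median treats separate results.

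For AKR1C1 216594_x_at the controls at 24 h read 13.15, 13.19 and 13.14, and the arrays of TiO2-NB at 100 µg/ml read 12.96, 12.99 and 12.94. The groups did not overlap. The difference was -0.19 ± 0.043 (SE from limma, adjusted p = 0.0081), or 1.14-fold.

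For AKR1C1 204151_x_at the controls read 13.38, 13.41 and 13.43 and the exposed arrays 13.25, 13.25 and 13.18, again without overlap. The difference was -0.18 ± 0.046 (limma adjusted p = 0.024). AKR1C2 209699_x_at read 12.65, 12.70 and 12.69 in controls and 12.51, 12.52 and 12.45 in exposed cultures. Every exposed array of this AKR1C2 probe set was below every control, with a difference of -0.19 ± 0.052 (limma adjusted p = 0.043). AKR1C2 211653_x_at read 12.72, 12.75 and 12.73 in controls and 12.56, 12.59 and 12.55 in exposed cultures, a difference of -0.17 ± 0.046 (limma adjusted p = 0.033). The 4 differences lay within 0.020 of each other. These probe sets were read from the same RNA and cannot tell AKR1C1 from AKR1C2, so they are not 4 separate results.

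These calls depended on how the spread was estimated. With the spread taken from the 6 compared arrays alone, 0 of the 4 calls held and the limma adjusted p-values lay between 0.078 and 0.110, at the same differences. Without control replicate 2, or without TiO2-NB replicate 3, no member was called; 1 was called without control replicate 3 or TiO2-NB replicate 2, and 2 without control replicate 1 or TiO2-NB replicate 1. In all of these the 4 differences stayed between -0.20 and -0.16.

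The remaining members were not called in this comparison. AKR1C3 was at 11.61, 11.67 and 11.65 in controls and at 11.49, 11.53 and 11.50 after exposure. Its arrays did not overlap, and the difference was -0.13 ± 0.048 (limma adjusted p = 0.165). AKR1C1 217626_at differed by -0.19 ± 0.073 (limma adjusted p = 0.203), with no overlap of the arrays either. AKR1B10 differed by -0.025 ± 0.13 and AKR1C4 by -0.050 ± 0.13, and the arrays of both overlapped with the controls.

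Because the 4 x_at probe sets are near the top of the scale, other probe sets with a mean of at least 12.55 were looked at. Of these 366, 4 were called after 24 h with TiO2-NB at 100 µg/ml (1.09%), all of them lower, and their median difference was 0.0058. Only 1 of the 366 had a difference as low as the smallest fall of the 4, -0.17. The part of the high level in the size of the members' differences was not tested. The sources of RNA were mixed cells, so fewer cells of a type and less RNA per cell cannot be told apart. Over all genes, 3.15% were called in this comparison. Of the enterocyte markers, 0 of 12 were called, and the log2 of their summed levels was 15.52 to 15.55 in controls and 15.54 to 15.58 after exposure. Such a sum follows its brightest probe sets, so it says little of the weaker markers of a list. Of the goblet cell markers 1 of 12 was called, MUC5AC, which rose by 0.33 ± 0.084 (limma adjusted p = 0.023), and their summed level was 14.49 to 14.53 in controls and 14.54 to 14.56 after exposure. Among the leukocyte markers 1 of 10 rose, CD14 (0.31 ± 0.082, limma adjusted p = 0.030). No marker of epithelium, fibroblasts or endothelium was called. The part of these shifts in the AKR1C1 and AKR1C2 result was not tested.

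The upstream sequences of the AKR1C genes are shown because AKR1C1 and AKR1C2 read alike on the array. RefSeq windows of the 250 bases before each gene's start were taken on GRCh38.p14, written 5′ to 3′ on the strand of the gene. They are chr10:4963165-4963414 on the plus strand for AKR1C1, chr10:5003858-5004107 on the minus strand for AKR1C2, chr10:5048531-5048780 on the plus strand for AKR1C3 (the first of 2 windows listed) and chr10:5196587-5196836 on the plus strand for AKR1C4. Capitals mark the CCAAT box, which stands on the opposite strand in each case and is therefore read as ATTGG.
AKR1C1: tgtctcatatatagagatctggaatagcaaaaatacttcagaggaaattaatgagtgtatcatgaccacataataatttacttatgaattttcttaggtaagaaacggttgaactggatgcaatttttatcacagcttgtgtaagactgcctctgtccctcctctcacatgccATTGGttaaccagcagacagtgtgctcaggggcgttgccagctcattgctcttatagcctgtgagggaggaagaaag
AKR1C2: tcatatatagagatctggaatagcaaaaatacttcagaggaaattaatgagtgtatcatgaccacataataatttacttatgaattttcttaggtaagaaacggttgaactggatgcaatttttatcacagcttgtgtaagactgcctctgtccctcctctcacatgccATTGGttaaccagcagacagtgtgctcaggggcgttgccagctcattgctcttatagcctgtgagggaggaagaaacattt
AKR1C3: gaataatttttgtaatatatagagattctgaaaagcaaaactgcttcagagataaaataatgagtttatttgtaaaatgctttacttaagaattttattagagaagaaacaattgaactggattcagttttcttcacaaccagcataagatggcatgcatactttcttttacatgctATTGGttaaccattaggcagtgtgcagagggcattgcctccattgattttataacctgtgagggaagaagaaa
AKR1C4: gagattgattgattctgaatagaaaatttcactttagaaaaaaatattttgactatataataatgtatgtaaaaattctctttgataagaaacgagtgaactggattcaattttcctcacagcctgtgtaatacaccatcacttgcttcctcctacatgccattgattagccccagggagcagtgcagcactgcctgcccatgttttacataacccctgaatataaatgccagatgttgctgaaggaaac

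The AKR1C1 and AKR1C2 windows were identical at 245 of 246 aligned bases (99.6%). AKR1C1 and AKR1C3 shared 76.8% of aligned bases, and AKR1C1 and AKR1C4 shared 70.3%. The CCAAT box (CCAAT on either strand) began 77 bases before the start of AKR1C1, 81 before that of AKR1C2 and 73 before that of AKR1C3. AKR1C4 held none, and 32.0% of all 35116 RefSeq windows of this length held at least 1. The TATA box (TATAAA, either strand) was found in the printed windows of AKR1C3 and AKR1C4 but not of AKR1C1 or AKR1C2, against 10.7% of all windows. These AKR1C3 results are for its first window. The second AKR1C3 window held no TATA box, had its CCAAT box 86 bases before the start and shared 78.6% of aligned bases with AKR1C1. No AKR1C window held the core of the antioxidant response element by which NRF2 acts (TGACNNNGC, in 10.9% of windows), an AP-1 site (TGANTCA, 6.57%) or the core of the xenobiotic response element (GCGTG, 32.2%). All motifs were searched on both strands, and the AP-1 letters can overlap those of the antioxidant response element. A match or its absence describes only the letters of these windows.

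AKR1C3 was the 1 member called after 1 h, and again with TiO2-NB at 100 µg/ml. The controls at 1 h read 11.54, 11.52 and 11.70 and the exposed arrays read 11.32, 11.32 and 11.40. All exposed arrays lay below all controls. The fall was -0.24 ± 0.048 (SE from limma, adjusted p = 0.0020), to 84.6% of control, in a comparison in which 8.43% of all probe sets were called. The 4 x_at probe sets of AKR1C1 and AKR1C2 also had lower means here, by -0.105 to -0.088. They were not called (limma adjusted p from 0.179 to 0.337). AKR1C3 was the only member to pass limma's F-test over the 5 groups at 1 h (adjusted p = 0.023), which 1892 probe sets passed. At 24 h only AKR1C1 216594_x_at did (adjusted p = 0.042), among 698 probe sets.

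The other exposures at 1 h gave AKR1C3 lower means without a call. MWCNT at 10 µg/ml read 11.44, 11.47 and 11.54, a difference of -0.10 ± 0.048 (limma adjusted p = 0.228). MWCNT at 100 µg/ml read 11.43, 11.52 and 11.44, a difference of -0.12 ± 0.048 (limma adjusted p = 0.124). TiO2-NB at 10 µg/ml read 11.44, 11.44 and 11.47, a difference of -0.13 ± 0.048 (limma adjusted p = 0.093). In the order of AKR1C3 levels all 4 exposed groups at 1 h stood last, and the step of 0.106 down to TiO2-NB at 100 µg/ml was the 1 of 9 steps that exceeded the bigger of the 2 SDs. At 24 h the MWCNT groups differed from control by 0.0079 and 0.0083, and TiO2-NB at 10 µg/ml by -0.10.

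Some cell type markers were also called between TiO2-NB at 100 µg/ml and control at 1 h, where 10.5% of all genes were called. Of the goblet cell markers TFF2 fell by 0.22 ± 0.058 (limma adjusted p = 0.016) and MUC13 rose by 0.23 ± 0.048 (limma adjusted p = 0.0028), 2 of 12. Their summed level was 14.49 to 14.57 in controls at 1 h and 14.47 to 14.50 after exposure. Of the leukocyte markers 2 of 10 rose, CD53 by 0.26 ± 0.066 and NKG7 by 0.22 ± 0.066, and their summed level was 9.06 to 9.22 in controls and 9.11 to 9.32 after exposure. No marker of enterocytes, epithelium, fibroblasts or endothelium was called, and the summed level of the enterocyte markers was 15.53 to 15.56 in controls and 15.57 on all 3 exposed arrays. The part of these shifts in the AKR1C3 result was not tested.

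The AKR1C3 call at 1 h held when any 1 of the 6 arrays was left out, at differences from -0.27 to -0.19, and it was lost with the spread of the 6 arrays alone (limma adjusted p = 0.129). A sign of RNA composition moved in the same groups. The array's probe set for the 5′ part of 18S ribosomal RNA was above control at 1 h by 1.17 and 1.51 with MWCNT at 10 and 100 µg/ml and by 0.84 and 0.80 with TiO2-NB. With this level as a covariate, AKR1C3 differed by -0.24 at TiO2-NB 100 µg/ml (limma adjusted p = 0.0075). At 24 h the same ribosomal signal was above control by 0.24 and 0.059 with MWCNT and by 0.40 and 0.19 with TiO2-NB, and the 4 calls of AKR1C1 and AKR1C2 held with it as a covariate. The slope of this covariate comes only from differences between arrays of the same group. A change of RNA composition that goes with exposure cannot be told apart from exposure in these fits, and its part was not tested.

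AKR1B10 had the widest range of the members, 8.73 to 9.43 over the 30 arrays, and was called in none of the comparisons. At 1 h its controls lay between 8.92 and 9.09. MWCNT at 100 µg/ml lay between 9.13 and 9.43, above all controls, with a difference of 0.33 ± 0.13 (limma adjusted p = 0.136). TiO2-NB at 10 and 100 µg/ml had means 0.19 ± 0.13 above control at both doses, and their arrays overlapped with the controls. MWCNT at 10 µg/ml differed by -0.0092 ± 0.13. At 24 h the 4 differences from control lay between -0.025 and 0.11, and all groups overlapped with control. The largest SD of AKR1B10 within a group was 0.26, with MWCNT at 100 µg/ml for 24 h. At 1 h the SD was 0.089 in controls, 0.17 with MWCNT at 100 µg/ml and 0.24 with TiO2-NB at 100 µg/ml.

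AKR1C4 differed from control by -0.088 to 0.075 in the 8 comparisons, with overlap of the arrays in each, and its standard error was 0.13. A change of the size seen for AKR1C1 and AKR1C2 was not detectable in AKR1C4 with that error.

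**Figure D2:**
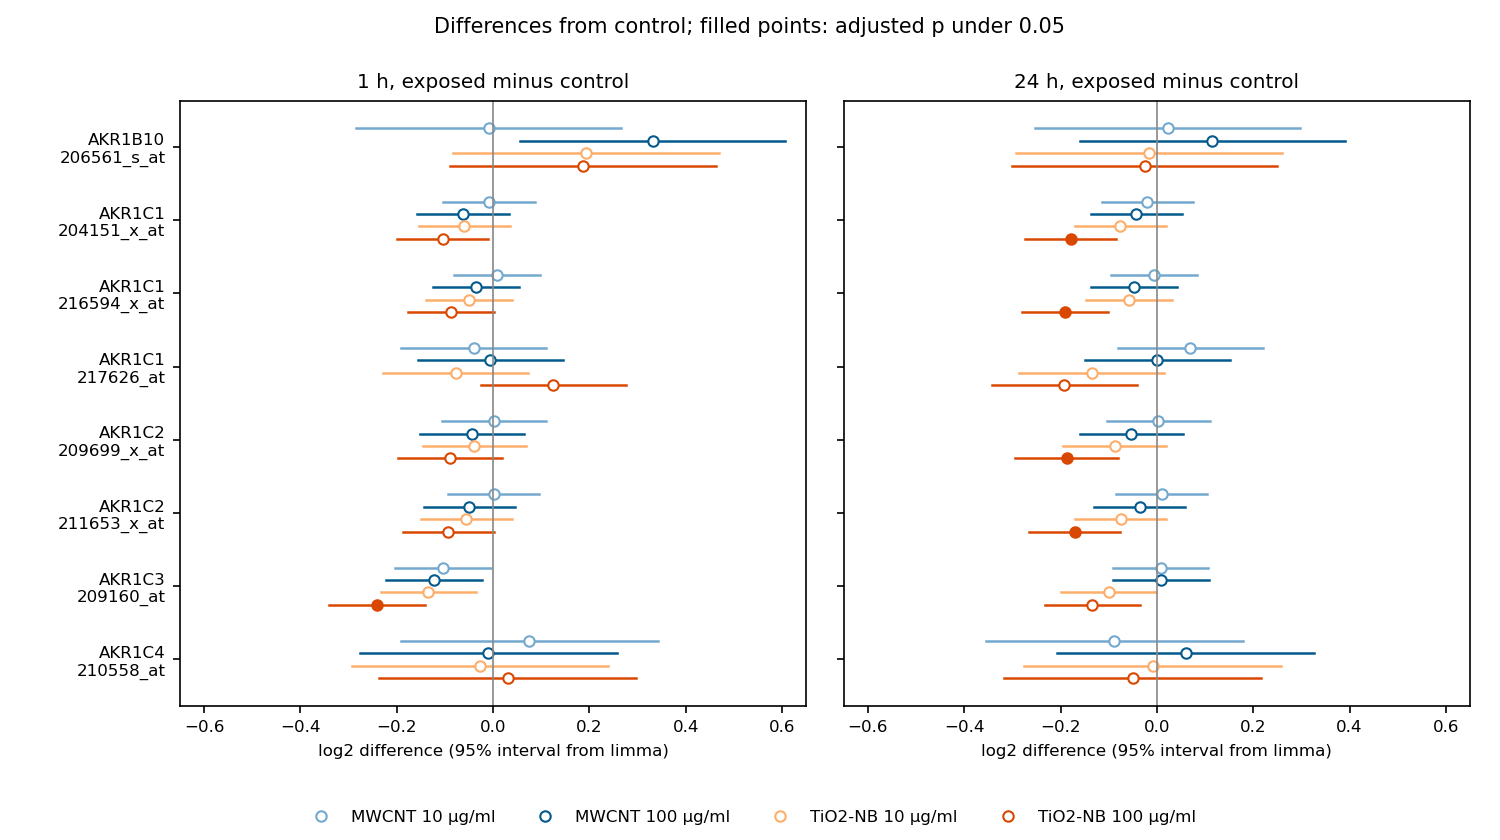
Log2 difference of each exposed group from the control of its time for the 8 probe sets, with 95% intervals from limma (n = 3 arrays per group); filled points had an adjusted p under 0.05. The 4 filled points at 24 h lie between -0.19 and -0.17, and the 1 at 1 h is AKR1C3 at -0.24.

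No member was called in the other comparisons with control. At 1 h these were MWCNT at 10 µg/ml, with 6.46% of all probe sets called, MWCNT at 100 µg/ml with 7.78% and TiO2-NB at 10 µg/ml with 7.84%. At 24 h they were MWCNT at 10 µg/ml with 0.0045%, MWCNT at 100 µg/ml with 0.009% and TiO2-NB at 10 µg/ml with 0.0585%. At an unadjusted p under 0.05, limma gave 1, 2 and 1 of the 8 members in the first 3 of these, against 19.7%, 22.1% and 20.9% of all probe sets. It gave 0, 0 and 1 in the last 3, against 4.29%, 5.56% and 7.59%. With MWCNT at 100 µg/ml for 24 h the 4 x_at probe sets of AKR1C1 and AKR1C2 differed from control by -0.053 to -0.036, and with TiO2-NB at 10 µg/ml by -0.088 to -0.058. With TiO2-NB at 10 µg/ml for 24 h the arrays of these 4 probe sets did not overlap with the controls (limma adjusted p from 0.745 to 0.817). How many of all probe sets also lacked overlap was not counted, so this only describes the arrays and is not shown to be an effect.

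Dose was compared within each particle and time. From 10 to 100 µg/ml of TiO2-NB at 24 h, where 1.83% of all probe sets were called, the 4 x_at probe sets differed by -0.13 to -0.096 and were not called (limma adjusted p from 0.180 to 0.670). The arrays of the 2 doses did not overlap in any of the 4, and the share of all probe sets without overlap was not counted. In the other dose comparisons 0% of all probe sets and 0 members were called. In these, limma gave 1 member at an unadjusted p under 0.05 for MWCNT at 1 h, 2 for TiO2-NB at 1 h and 0 for MWCNT at 24 h, against 6.83%, 6.42% and 6.65% of all probe sets. The differences of AKR1C3 by dose were -0.019 for MWCNT and -0.11 for TiO2-NB at 1 h, and 3.8e-04 and -0.034 at 24 h.

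The particles were compared at equal dose and time. At 100 µg/ml for 24 h, where 2.88% of all probe sets were called, the 4 x_at probe sets of AKR1C1 and AKR1C2 were 0.13 to 0.14 higher with MWCNT than with TiO2-NB. Their arrays did not overlap (share over all probe sets not counted), and none was called (limma adjusted p from 0.080 to 0.228). The 95% intervals of the 4 differences ran from 0.027 at the lowest to 0.24 at the highest. AKR1C3 was 0.14 ± 0.048 higher with MWCNT (limma adjusted p = 0.139). With an intensity trend and robust variances, 4 members were called here, and the share of all probe sets called in that setting is not given. A call against control with 1 particle and none with the other is therefore not shown to be a difference between the particles in the test used throughout. At 10 µg/ml for 24 h 0.0315% of all probe sets and 0 members were called. At 1 h 0.0675% were called at 10 µg/ml and 0% at 100 µg/ml, with 0 members in each.

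Whether an effect at 24 h differed from that at 1 h was tested as an interaction. No member was called, against 1.79% and 2.71% of all probe sets for MWCNT at 10 and 100 µg/ml and 3.83% and 5.84% for TiO2-NB. For TiO2-NB at 100 µg/ml the effect on AKR1C3 was 0.11 ± 0.068 higher at 24 h (limma adjusted p = 0.426). The effects on the 4 x_at probe sets were 0.074 to 0.10 lower at 24 h than at 1 h (limma adjusted p from 0.387 to 0.602). The calls of AKR1C3 at 1 h and of AKR1C1 and AKR1C2 at 24 h are thus not shown to differ between the times. The nearest to a call was AKR1C1 217626_at, whose difference from control was 0.12 at 1 h and -0.19 at 24 h (interaction -0.32 ± 0.10, limma adjusted p = 0.072).

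The 4 x_at probe sets also differed between the controls of the 2 times. They were higher at 24 h than at 1 h, and 4 of 8 members rose where 18.1% of all probe sets were called. Here too the 4 cannot tell AKR1C1 from AKR1C2 and are not separate results. AKR1C1 216594_x_at read 12.96, 12.95 and 13.05 at 1 h and 13.15, 13.19 and 13.14 at 24 h, a rise of 0.17 ± 0.043 without overlap (limma adjusted p = 0.0061). AKR1C1 204151_x_at read 13.23, 13.23 and 13.33 at 1 h and 13.38, 13.41 and 13.43 at 24 h, a rise of 0.15 ± 0.046 (limma adjusted p = 0.029). In both AKR1C2 probe sets too the arrays did not overlap. Probe set 209699_x_at read 12.44, 12.54 and 12.60 at 1 h and rose by 0.15 ± 0.052 (limma adjusted p = 0.045), and 211653_x_at read 12.53, 12.55 and 12.67 and rose by 0.15 ± 0.046 (limma adjusted p = 0.020). AKR1C3 differed by 0.056 ± 0.048 and AKR1B10 by -0.13 ± 0.13, and neither was called.

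The controls at 24 h serve in this comparison and in that of TiO2-NB at 24 h, so the rise with time and the fall with TiO2-NB are not independent. For 204151_x_at the 3 arrays exposed to 100 µg/ml of TiO2-NB for 24 h read 13.18 to 13.25 and the controls at 1 h 13.23 to 13.33. For 216594_x_at they read 12.94 to 12.99 and 12.95 to 13.05. The rise with time was lost in all 4 probe sets with the spread of the 6 arrays alone (limma adjusted p from 0.067 to 0.131). Without control replicate 1 or 2 of 1 h, or control replicate 2 or 3 of 24 h, 1 of the 4 calls was left, that of 216594_x_at. With 18S as a covariate 3 were left, in a fit that has the same limit as above.

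Among the probe sets with a mean of at least 12.55, 7.1% of the 366 others were called between the controls, 14 of them higher and 12 lower at 24 h. The members' median difference with time was 0.15, against 0.0056 over all probe sets. Markers of several cell types moved with time, where 8.79% of all genes rose and 12.3% fell. Of the enterocyte markers 2 of 12 rose and 1 fell, of the epithelial markers 2 of 8 fell, and of the goblet cell markers 1 of 12 rose, MUC13. Of the leukocyte markers CD53 and NKG7 rose and CD14 fell (3 of 10), of the endothelial markers PECAM1 fell (1 of 7), and of the fibroblast markers 0 of 8 were called. Their part in the members' rise was not tested.

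The other genes of the pathways in which these enzymes act were taken from lists compiled by function. Those lists were drawn up with earlier results of these data known, so their counts are a description. Over all 11963 genes, 3.79% rose and 5.65% fell with MWCNT at 100 µg/ml for 1 h, and 3.07% rose and 7.44% fell with TiO2-NB at 100 µg/ml for 1 h. At 24 h, 0.00836% of all genes were called with MWCNT at 100 µg/ml and 3.15% with TiO2-NB at 100 µg/ml, so that a list of this size with 0 called at 24 h does not stand apart from all genes. Of 20 measured genes of the NRF2 pathway, 0 were called after TiO2-NB at 100 µg/ml for 24 h, when the x_at probe sets of AKR1C1 and AKR1C2 fell, and their median difference was 0.019 against 0.015 over all genes. At 1 h, 2 of the 20 were called with TiO2-NB at 100 µg/ml, close to the 10.5% called over all genes, and both rose. They were SLC7A11, the cystine importer (0.46 ± 0.077, limma adjusted p = 3.7e-04), and NFE2L2, which encodes NRF2 itself (0.23 ± 0.046, adjusted p = 0.0025). With MWCNT at 100 µg/ml for 1 h the same genes had differences of 0.52 and 0.25 and both rose, and the transporter gene ABCC3 fell by 0.20 ± 0.051 (limma adjusted p = 0.014). The remaining 18 and 17 genes were not called.

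Of 12 other measured carbonyl reductases and alcohol dehydrogenases, 1 fell at 1 h, with both particles at 100 µg/ml, near the 5.65% and 7.44% of all genes that fell. It was AKR7A2, an aldo-keto reductase that acts on succinic semialdehyde, and its differences were -0.13 ± 0.040 with MWCNT and -0.19 ± 0.040 with TiO2-NB (limma adjusted p = 0.043 and 0.0030). At 24 h AKR7A2 differed from control by 0.0010 with TiO2-NB. NADPH is the cofactor of the reductases. The list for its supply holds genes of whole pathways, not only of enzymes that make NADPH. Of 9 measured, 1 rose and 1 fell at 1 h with each particle at 100 µg/ml, where 9.44% and 10.5% of all genes were called. MTHFD2, a mitochondrial folate enzyme, rose by 0.17 with MWCNT and by 0.25 with TiO2-NB. PGLS, of the pentose phosphate pathway, had differences of -0.17 and -0.18. None of the 9 was called at 24 h with either particle at 100 µg/ml.

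Many aldehyde dehydrogenases, though not all, oxidise aldehydes, which the aldo-keto reductases reduce. Of 16 measured, 3 fell at 1 h with each particle at 100 µg/ml, where 5.65% and 7.44% of all genes fell. At 24 h 0 of the 16 were called, with 0.00836% and 3.15% of all genes called. ALDH3A2, which oxidises fatty aldehydes, had differences of -0.23 with MWCNT and -0.22 with TiO2-NB (SE 0.049 in each). ALDH18A1, of proline synthesis, had -0.13 and -0.18, and ALDH7A1, of lysine breakdown, had -0.15 and -0.13.

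Retinal is a substrate of AKR1B10. Of 15 measured retinoid genes, 3 fell at 1 h with each particle at 100 µg/ml, against the same shares of all genes. The retinoic acid receptor gene RARB fell by 0.86 ± 0.092 with MWCNT and by 1.02 ± 0.092 with TiO2-NB (limma adjusted p = 2.3e-06 and 1.3e-07). CYP26A1, which degrades retinoic acid, fell by 0.45 ± 0.12 and 0.68 ± 0.12, and RXRA, the partner receptor, by 0.18 and 0.22. No retinoid gene was called at 24 h with either particle at 100 µg/ml.

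Steroids and prostaglandins are substrates of the AKR1C enzymes. At 100 µg/ml for 1 h, 9.44% of all genes were called with MWCNT and 10.5% with TiO2-NB. The few calls below do not stand apart from these shares. Of 21 measured steroid genes, HSD17B7 fell at 1 h with both particles at 100 µg/ml (-0.24 ± 0.044 and -0.20 ± 0.044). The estrogen sulfotransferase gene SULT1E1 fell with MWCNT (-0.42 ± 0.12, limma adjusted p = 0.033), and CYP17A1, of androgen synthesis, rose with TiO2-NB (0.31 ± 0.096, limma adjusted p = 0.044). Of 15 prostaglandin genes the 1 called at 100 µg/ml against control was PPARG, a nuclear receptor for fatty acid derivatives, which fell by 0.74 ± 0.064 with MWCNT and by 0.88 ± 0.064 with TiO2-NB at 1 h. At 24 h 0 genes of both lists were called at 100 µg/ml of either particle. Of 8 genes of polyols and osmolytes, the myo-inositol carrier gene SLC5A3 was the 1 called at 100 µg/ml against control, with TiO2-NB at 1 h (-0.29 ± 0.086, limma adjusted p = 0.038).

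**Figure D3:**
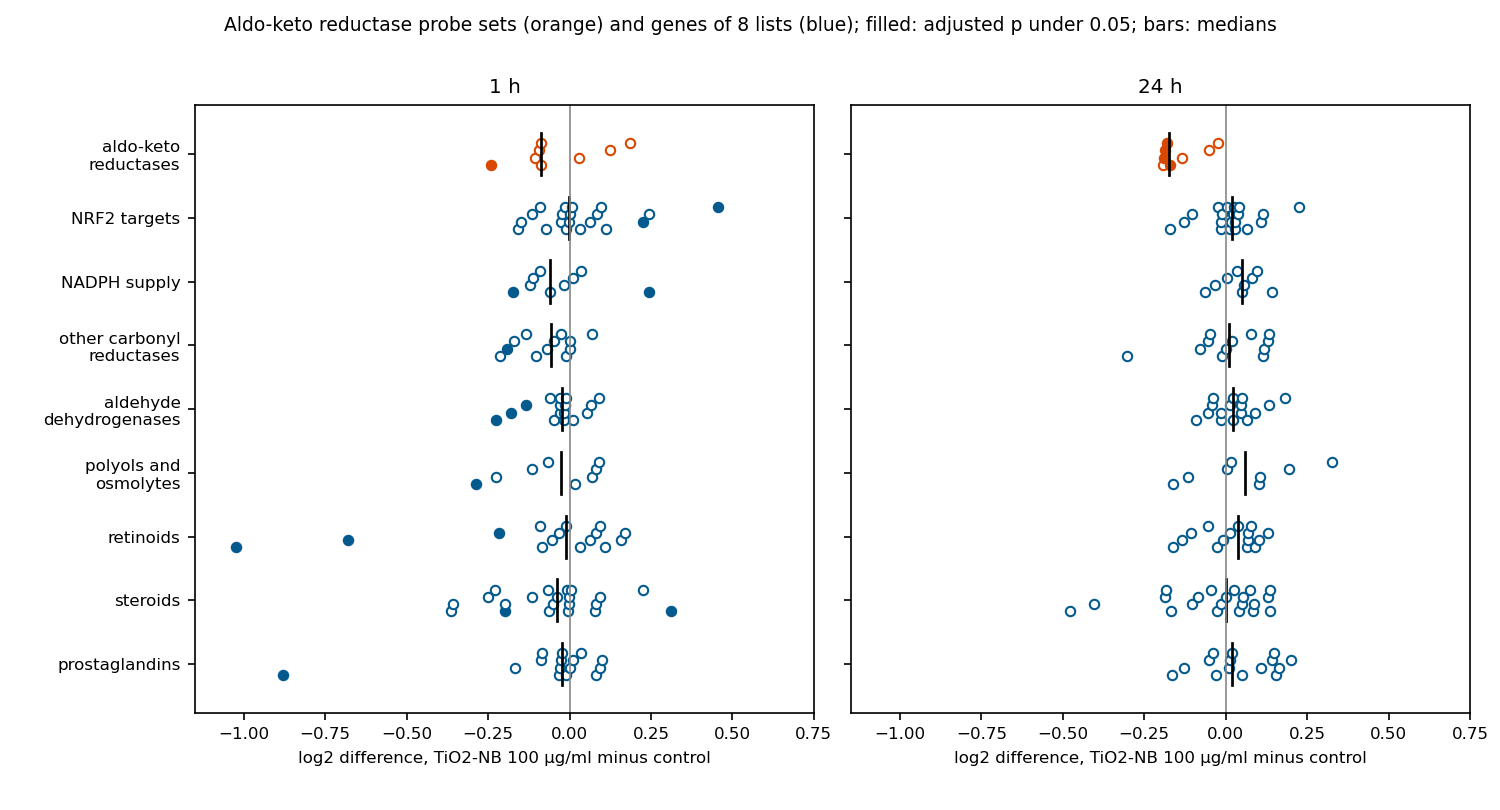
Log2 difference from control with TiO2-NB at 100 µg/ml after 1 h and after 24 h for the 8 aldo-keto reductase probe sets (orange) and for the measured genes of 8 lists (blue); filled points had a limma adjusted p under 0.05 and bars are medians. At 24 h the 4 filled points are all aldo-keto reductases, near -0.18, and at 1 h AKR1C3 is the 1 filled point among them.

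Genes whose group means ran most like those of each member were sought by Pearson's r over the 10 group means. The search covered 7616 probe sets with a single symbol, outside the members, that passed the F-test. Means of the same arrays share their controls and their RNA, so r is a description. The groups compared below are among the 10 means that chose the genes. Differences like those of the members therefore follow in part from the choice and are no separate evidence. For AKR1C1 (204151_x_at) the closest were FMO1, a flavin monooxygenase of drug metabolism (r = 0.975), MOSPD2 (0.971) and TIMP3, an inhibitor of matrix metalloproteinases (0.963). For AKR1C2 (211653_x_at) they were MOSPD2 (0.972), VPS35, of the retromer (0.970), and TIMP3 (0.965). FMO1 and MOSPD2 had larger differences than the members with TiO2-NB at 100 µg/ml for 24 h, -0.42 and -0.51, and both were called. TIMP3 and VPS35 differed by -0.11 and -0.096 and were not called.

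For AKR1C3 the closest genes were BTG1, an antiproliferative gene (r = 0.955), CEPT1, of phospholipid synthesis (0.947), and RAB13, a small GTPase of tight junctions (0.946). With TiO2-NB at 100 µg/ml for 1 h they fell by 0.35, 0.25 and 0.16. For AKR1B10 they were the metallothionein genes MT1HL1 (0.958) and MT1X (0.942) and the nuclear receptor gene ESRRA (0.947). None of these 3 was called with TiO2-NB at 100 µg/ml at either time or between the controls, which is also the case for AKR1B10.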

How the data were processed

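The deposited table holds log2 levels that the authors made with RMA, per the submitters' processing notes; which version and which chip definition file they used is not given in the sources used here. RMA corrects background, makes the array distributions alike and summarises the probes of each set, so a change is relative to the other transcripts of the same array. Of 22277 rows, 62 array controls were left out. Precision depends on there being 3 arrays in each group, since arrays carry no reads to count.

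Symbols come from the annotation of the platform. Of the tested probe sets 19064 carry 1 symbol, 1043 several and 2108 none, and only those with 1 symbol were named; 19052 matched the RefSeq gene table. For the lists, the probe set with the highest mean stands for a gene (11963 genes).

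In R 4.3.3 with limma 3.58.1, 1 mean per group was fitted to all 30 arrays (20 residual degrees of freedom, 3.68 added by eBayes). Two-sided p-values were adjusted by the Benjamini-Hochberg method across 22215 probe sets in each of 21 comparisons; a call is an adjusted p under 0.05. The fit was also run on simulated arrays whose planted changes were larger than the called differences of the members. Recovery of changes as small as those of the members was not tested. Members and lists were chosen with earlier results of these data known. All member probe sets are named, with array values for those called. From a list up to 3 called genes with the largest change are named in each comparison of 100 µg/ml with control, and for each member that passed the F-test the 3 genes of highest r. The markers MUC2, MUC5B, ATOH1, CLCA1, MUC5AC, MUC13, TFF2, CD14, CD53, NKG7 and PECAM1 are named by the rule for small counts, after their values were seen. In the text, ± is limma's standard error, for 3 arrays in each group, except where SD is written. The share of all probe sets whose arrays did not overlap was not counted in any comparison, so overlap only describes the arrays named.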

Additional observations from a re-analysis of the deposited data

How the results depend on the processing

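Besides leaving out each array, 8 alternatives were run, and 0 results were reversed. Where the fit over all arrays called 0 members, the share of all probe sets called in the other settings is not given here. With the compared groups only, 0 members were called with TiO2-NB at 100 µg/ml at 1 h (1 in the fit over all arrays) and at 24 h (4), and 0 between the controls (4). With the 14810 brightest probe sets alone, 1 member was called between the particles at 100 µg/ml for 24 h and 1 in the interaction of TiO2-NB at 100 µg/ml, where the fit over all probe sets gave 0. An intensity trend with robust variances called 1 member with TiO2-NB at 10 µg/ml for 1 h, 1 between the doses of TiO2-NB at 24 h and 4 between the particles at 100 µg/ml for 24 h, and array weights called 1 in the last. With 1 probe set per gene, 2 were called with TiO2-NB at 100 µg/ml for 24 h and 2 between the controls, by construction, since AKR1C1 and AKR1C2 then have 1 probe set each. Leaving out 1 array at a time gave 0 to 2 members with TiO2-NB at 100 µg/ml for 24 h, 1 to 4 between the controls, 0 to 1 between the particles at 100 µg/ml for 24 h and 0 to 1 in the interaction of TiO2-NB at 100 µg/ml.

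The count over all probe sets was 1872 with TiO2-NB at 100 µg/ml for 1 h, 1175 without its replicate 2, 1234 without control replicate 3 and 269 with the compared groups only. It was 785 at 24 h, 491 without TiO2-NB replicate 3, 217 with the compared groups only and up to 1381 in other settings. Between the controls it was 4014, and 2525 to 4218 in the other settings.

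Same-numbered arrays did not deviate together (median correlation of their deviations 0.0080, from -0.28 to 0.21, and 11 of 30 arrays closest to their own number), so the numbers do not pair the samples. With a replicate block the member counts were 1, 4 and 4 for the comparisons above, and no member call changed.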
